A study of Mus musculus with 4 samples.

Results

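The Bex (brain-expressed X-linked) and Tceal (transcription elongation factor A-like) genes form a family of small, mostly X-linked genes of placental mammals. The 7 members described here are Bex1, Bex2, Bex3, Bex4, Tceal1, Tceal8 and Tceal9, taken by symbol from a table of 29011 mouse genes. They were chosen by their measured difference in level between knockout and control in these same libraries, so that difference is a description of the members and carries no test. RNA of whole small intestine was sequenced from mice at postnatal day 8, in 2 control and 2 Lats1/2 knockout (KO) libraries. Both genotypes concern Lats1 and Lats2, the kinases of the Hippo pathway that restrain the co-activators YAP and TAZ. The KO genotype is given as VilCre+; Lats1/2-/-, with a Villin-driven Cre recombinase that acts in the intestinal epithelium and leaves the other cells of the gut wall unrecombined. The control genotype is given as VilCre-; Lats1/2-/-, while the study's design text calls these animals Lats1/2 f/f without Cre. The labels do not say whether the 2 libraries of a group came from separate animals, so p-values below measure only the spread between these libraries.

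Bex proteins are small, largely unstructured adaptors that are abundant in brain, where Bex1 and Bex3 bind the intracellular part of the p75 neurotrophin receptor, a receptor that can pass survival or death signals. Bex3 is also known as NADE, the p75-associated cell death executor. Tceal proteins are named for their similarity to the elongation factor TFIIS, which helps stalled RNA polymerase II to resume. In the gut these genes are known mainly from neurons and hormone-secreting cells.

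The labels were first checked against the targeted genes and the sex-linked genes. Lats1 had 2316 and 2560 normalized counts in the controls and 751 and 661 in the KO libraries, a log2 change of -1.79 ± 0.10 (SE) with an adjusted p of 0.00055 (limma, Benjamini-Hochberg), while for Lats2 the log2 change was -0.03 (adjusted p 0.868). Lats1 thus stood with the labels and Lats2 gave no check of them: the deleted exons are not named in the labels, and whole tissue also holds cells without the recombinase. The libraries held 25135964 to 32361940 reads assigned to genes. Control replicate 1 had 64.2 normalized counts of Xist and 1906 of the Y-linked gene Ddx3y, whereas the other 3 libraries had 17034 to 17821 of Xist and at most 5.55 of Ddx3y. Control replicate 1 therefore had the pattern of a male and the others that of females, which bears on members that all lie on the X chromosome. The members' values without that library are given beside their results. The controls therefore came from different animals, whereas the source of the KO libraries is not known beyond the labels.

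Bex1, Bex3, Bex4, Tceal8 and Tceal9 were higher in both KO libraries than in both controls, and Bex2 and Tceal1 were lower in both. The differences ranged from a 16.1-fold higher level of Bex4 to a 1.52-fold lower level of Bex2. Of all 16415 tested genes, 34.9% had both KO values above both control values and 33.4% had both below, while 27.5% passed an adjusted p of 0.05, 15.2% higher and 12.3% lower in the KO. Nothing is read from those shares for the members, whose choice used this contrast. The median log2 change of the 7 members was 2.09, beside -0.00 over all tested genes. Summed over the 7 genes, the level was 7686 and 8850 normalized counts in the controls and 38230 and 39029 in the KO libraries.

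**Figure D1:**
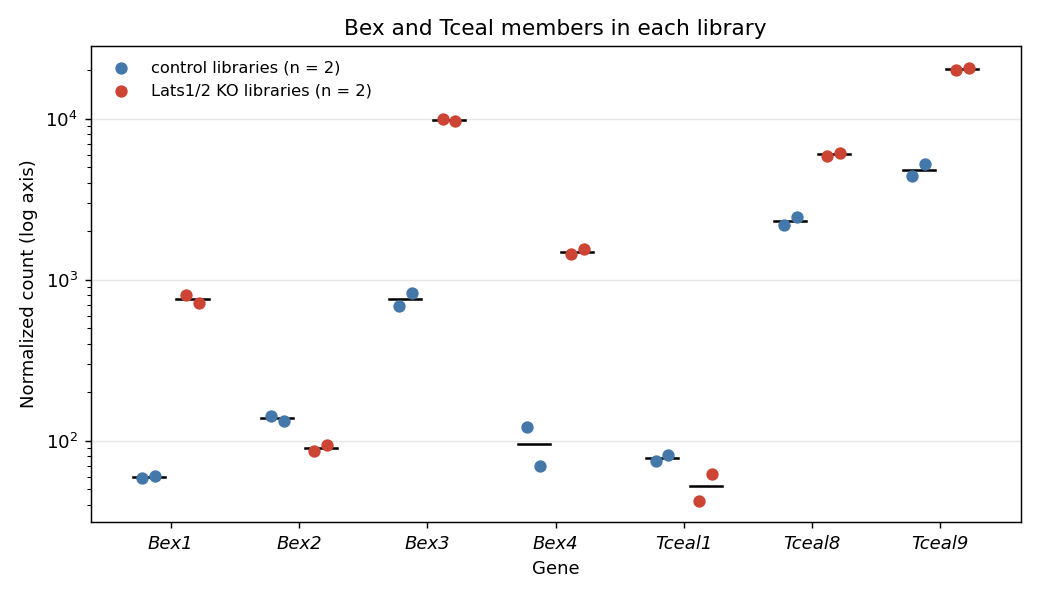
Normalized counts of the 7 members in each of the 4 libraries, on a log axis, with points for libraries and bars for group means (n = 2). The KO values of Bex1, Bex3, Bex4, Tceal8 and Tceal9 lie above both control values, and those of Bex2 and Tceal1 lie below them.

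Bex1 and Bex4 had the lowest control levels among the members that were higher in the KO, and 2 of the 3 highest fold differences. Bex1, an adaptor of the p75 receptor, had 59.0 and 60.6 normalized counts in the controls and 809 and 719 in the KO libraries. The control libraries were nearly equal and the KO libraries lay far above them, at 59.8 ± 1.11 against 764 ± 63.2 (SD, n = 2 each). The log2 change was 3.65 ± 0.13 (SE, on the scale of log2 of the normalized count plus 1), or 12.6-fold, the 65th largest of 16415. Bex4, whose human protein associates with microtubules, had 122 and 69.7 normalized counts in the controls and 1453 and 1546 in the KO libraries. In proportion, its controls differed from each other more than those of any other member, at 95.9 ± 37.1 (SD, n = 2), but both lay far below the KO mean of 1499 ± 66.1. The Bex4 log2 change was 4.01 ± 0.26, or 16.1-fold, the largest of the family and the 47th largest of all tested genes. Without control replicate 1 the log2 change was 3.63 for Bex1 and 4.41 for Bex4.

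Bex1 and Bex4 lie on opposite strands of the X chromosome, Bex1 at chrX:136213972-136215513 on the minus strand and Bex4 at chrX:136138996-136140443 on the plus strand (GRCm38). Their promoters are close copies of each other, and the 250 bases before each RefSeq start (GRCm38.p6) are shown for this reason. Bex1 is read from chrX:136215514-136215763 on the minus strand and Bex4 from chrX:136138746-136138995 on the plus strand. Capitals mark the longest run that the pair shares letter for letter within these 250 bases, 221 bases long and displaced by 6 bases relative to the start. The run is cut at the Bex1 start, where the stretch shown ends. The lower-case letters that follow it in Bex4 also match the first bases of Bex1 after its start.
Bex1: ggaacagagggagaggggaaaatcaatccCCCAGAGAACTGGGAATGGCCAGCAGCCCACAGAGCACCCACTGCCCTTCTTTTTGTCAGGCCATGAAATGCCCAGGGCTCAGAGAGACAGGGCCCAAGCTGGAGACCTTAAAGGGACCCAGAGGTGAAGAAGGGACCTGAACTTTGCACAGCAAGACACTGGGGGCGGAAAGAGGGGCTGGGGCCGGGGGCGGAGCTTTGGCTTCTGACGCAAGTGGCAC
Bex4: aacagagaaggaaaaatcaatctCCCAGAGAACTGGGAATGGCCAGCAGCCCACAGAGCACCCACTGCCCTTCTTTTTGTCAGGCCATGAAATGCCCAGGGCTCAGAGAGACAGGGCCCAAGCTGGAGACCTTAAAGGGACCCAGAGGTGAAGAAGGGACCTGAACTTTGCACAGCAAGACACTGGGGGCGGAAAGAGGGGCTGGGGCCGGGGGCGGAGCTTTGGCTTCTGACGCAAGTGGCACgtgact
The likeness extends into the transcripts: 203 of the 1268 distinct 50-base windows of the Bex1 transcripts also occur in Bex4. In all, 30.9% of the Bex1 windows and 49.7% of the Bex4 windows occur in another gene, counting both strands. Of the Bex1 windows, 157 occur in Tceal7, which overlaps Bex1 on the opposite strand. Where the 2 genes overlap, the assignment of reads depends on the strand setting. Reads from stretches with copies elsewhere may be dropped or split between copies, depending on a multi-mapping setting not given in the sources used here. Levels of either gene are uncertain to that extent.

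Bex3 and Bex2 made the second such pair, and they moved in opposite directions between the groups. Bex3, the p75-associated executor, had 686 and 825 normalized counts in the controls and 9941 and 9657 in the KO libraries. The groups were far apart and each was tight, at 756 ± 98.3 against 9799 ± 201 (SD, n = 2 each), for a log2 change of 3.70 ± 0.10, or 13.0-fold. Bex2, whose human protein was described as a regulator of apoptosis in breast cancer cells, had 142 and 134 normalized counts in the controls and 87.0 and 94.0 in the KO libraries. Both KO values lay below both control values, by less than in any member that was higher, and the log2 change was -0.60 ± 0.15, or 1.52-fold lower. Without control replicate 1 the log2 change was 3.57 for Bex3 and -0.56 for Bex2.

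Bex3 lies at chrX:136270253-136271978 on the plus strand and Bex2 at chrX:136066564-136068236 on the minus strand. Their promoters are shown because they too share a long identical run, although the levels of the genes differed in opposite directions. Bex2 is read from chrX:136068237-136068486 on the minus strand and Bex3 from chrX:136270003-136270252 on the plus strand. Capitals mark the longest run shared within these 250 bases, 145 bases long and displaced by 37 bases relative to the start. This run is cut at the Bex2 start, so its full length was not measured.
Bex2: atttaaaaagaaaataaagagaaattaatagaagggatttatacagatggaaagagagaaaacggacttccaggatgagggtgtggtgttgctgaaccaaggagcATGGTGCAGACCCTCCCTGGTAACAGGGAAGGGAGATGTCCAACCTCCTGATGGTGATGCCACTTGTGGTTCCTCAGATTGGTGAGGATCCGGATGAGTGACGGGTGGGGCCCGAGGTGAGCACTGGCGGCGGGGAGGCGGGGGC
Bex3: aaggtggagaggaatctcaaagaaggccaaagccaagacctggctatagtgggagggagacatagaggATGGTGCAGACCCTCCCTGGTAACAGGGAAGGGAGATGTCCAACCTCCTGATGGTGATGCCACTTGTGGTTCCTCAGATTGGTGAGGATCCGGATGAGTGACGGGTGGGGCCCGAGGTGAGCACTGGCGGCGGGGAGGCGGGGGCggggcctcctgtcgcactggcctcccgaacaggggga
Every other pair among the 7 members shared a longest run of 8 to 11 bases in these windows. The transcripts of this pair are alike as well: 22.2% of the 50-base windows of Bex2 and 12.3% of those of Bex3 occur in another gene, mostly in each other.

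Tceal9 and Tceal8 were the most abundant Tceal genes and were higher in the KO, by a smaller factor than Bex1, Bex3 and Bex4. Tceal9, also known as Wbp5 for its binding to WW domains, had 4424 and 5210 normalized counts in the controls and 20028 and 20800 in the KO libraries. That is 4817 ± 556 against 20414 ± 546 (SD, n = 2 each), a log2 change of 2.09 ± 0.10 or 4.25-fold. Tceal8, a little-studied member, had 2178 and 2470 normalized counts in the controls and 5870 and 6151 in the KO libraries. The Tceal8 means were 2324 ± 207 and 6010 ± 199, a log2 change of 1.37 ± 0.08 or 2.59-fold, the smallest among the 5 members that were higher. Tceal9 lies at chrX:136245079-136247139 on the plus strand and Tceal8 at chrX:136168984-136172342 on the minus strand. Tceal9 had no 50-base window in common with another gene and Tceal8 had 0.806%.

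Tceal1, whose human protein is a nuclear phosphoprotein that modulates transcription, was lower in the KO. It had 74.5 and 81.2 normalized counts in the controls and 42.6 and 62.3 in the KO libraries, at 77.8 ± 4.68 against 52.5 ± 14.0 (SD, n = 2 each). The groups did not overlap, but the KO libraries differed from each other by more than the nearest KO and control values did. The log2 change was -0.58 ± 0.25, or 1.50-fold lower, and it lay between -0.85 and -0.31 when single libraries were left out. Tceal1 lies at chrX:136707982-136711478 on the plus strand and shared no 50-base window with another gene. Without control replicate 1 the log2 changes were 1.97 for Tceal9, 1.28 for Tceal8 and -0.65 for Tceal1.

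Per kilobase of exon, the order of the members differed between the groups. In the controls the normalized count per kilobase was 4645 ± 536 (SD, n = 2) for Tceal9, 907 ± 80.6 for Tceal8, 777 ± 101 for Bex3, 153 ± 6.33 for Bex2, 115 ± 44.3 for Bex4, 50.4 ± 0.940 for Bex1 and 27.8 ± 1.67 for Tceal1. The means of Tceal8 and Bex3, and those of Bex2 and Bex4, lay within the sum of their SDs of each other, so neither pair can be ordered. In the KO libraries the values were 19686 ± 526 for Tceal9, 10071 ± 207 for Bex3, 2345 ± 77.6 for Tceal8, 1791 ± 79.0 for Bex4, 644 ± 53.3 for Bex1, 100.2 ± 5.48 for Bex2 and 18.7 ± 4.99 for Tceal1. All neighbours in the KO order stood apart by more than the sum of their SDs. In these values Bex3 stood above Tceal8 in the KO, and Bex4 and Bex1 stood above Bex2. The SDs do not cover reads dropped or split at windows shared with other genes, which were 49.7% of the Bex4 windows and 30.9% of those of Bex1. The places of the Bex genes in either order are therefore not settled.

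The 5 members that were higher in the KO lie within 133.0 kb, chrX:136138996-136271978. This stretch is called the block here, and its ends were set by these members. Their own places and levels in the block are therefore a description and no test. The 2 that were lower lie outside it, with Bex2 ending 70.8 kb before the block and Tceal1 starting 436.0 kb after it. The block holds 7 genes of the table, all of the Bex and Tceal family, the other 2 being Tceal5 and Tceal7. Tceal5, which lies between Tceal8 and Bex1, had 12.4 and 13.7 normalized counts in the controls and 62.9 and 75.9 in the KO libraries. Tceal5 rose by a log2 change of 2.32 ± 0.25, or 4.99-fold, with an adjusted p of 0.00312 (limma, Benjamini-Hochberg over all tested genes), and its adjusted p lay between 6.83e-05 and 0.0255 in the 11 alternatives. Tceal7 was too low to be tested, with 1 read over both controls and 19 over both KO libraries, a ratio per read depth of 16.0 (95% exact interval 2.54 to 665, counting error only). Tceal7 overlaps Bex1 by 735 bases on the opposite strand, and since the strand setting of the counting was not stated by any label or header, reads of this stretch cannot be assigned to either gene. Tceal3, 318.9 kb after the block, had 17.6 and 22.9 normalized counts in the controls and 30.5 and 23.5 in the KO libraries and did not pass the test: its log2 change was 0.40 (95% interval -0.35 to 1.15, adjusted p = 0.367). Of the 5 Bex and Tceal genes outside the members, 2 were tested and 1 of these rose. Among the untested, Bex6 lies on chromosome 16 and not on the X chromosome.

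**Figure D2:**
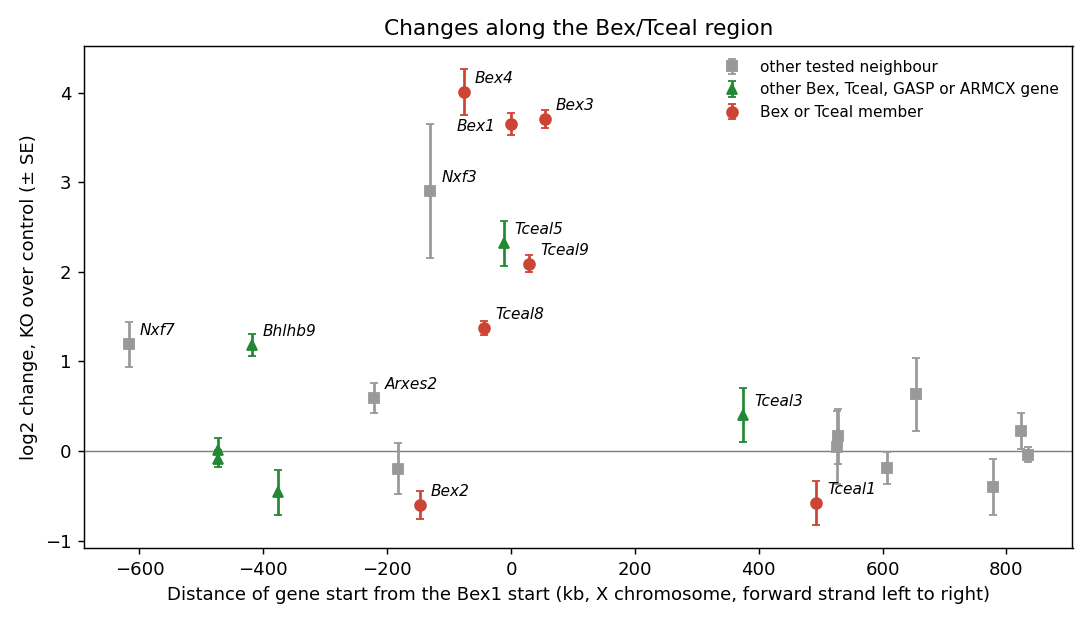
Log2 change (KO over control, of the normalized count plus 1) of tested genes along the X chromosome, plotted as distance from the start of Bex1 in kb, with bars for the standard error. The ends of the 133.0 kb block were set by the members that were higher in the KO. Its 6 tested genes, these members and Tceal5, have log2 changes of 1.37 to 4.01. Bex2, Tceal3 and Tceal1 on either side have -0.60, 0.40 and -0.58. Nxf3, between Bex2 and the block, has 2.90, from 3 and 0 reads in the controls.

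The genes within 1.0 Mb of the members are given beside this block. Of 17 tested neighbours, 5 rose and the other 12 did not pass (limma, adjusted p of 0.05), with a median log2 change of 0.16. The 5 included Tceal5 and Bhlhb9, a member of the neighbouring GASP and ARMCX relatives, which had 173 and 200.0 normalized counts in the controls and 406 and 439 in the KO libraries. Bhlhb9 rose by a log2 change of 1.18 ± 0.12 (adjusted p = 0.00293). Nxf7 and Nxf3, genes of the mRNA export factor family, rose by 1.19 ± 0.25 (adjusted p = 0.0233) and 2.90 ± 0.75 (adjusted p = 0.0397). Nxf3 went from 3 and 0 reads to 17 and 14. Nxf3 met the filter on low values only through the KO libraries, so it could enter the count of neighbours only as a rise. The signal peptidase-related gene Arxes2 rose by 0.59 ± 0.16 (adjusted p = 0.0483). Without a filter on low values or without KO replicate 1 these 3 calls were lost, in the latter fit at adjusted p of 0.109 for Nxf7, 0.147 for Nxf3 and 0.208 for Arxes2. Arxes2 also lost the call without any other single library, with DESeq2 (adjusted p = 0.0643) and with library-size scaling (0.0543), Nxf3 without KO replicate 2 or control replicate 2 (log2 change 1.88 without the latter), with DESeq2 (0.0885) and with a pseudocount of 0.5 (0.0532), and Nxf7 without control replicate 2 (0.0676). Without control replicate 1, the library with the male pattern, the log2 changes were 2.25 for Tceal5, 1.07 for Bhlhb9, 1.37 for Nxf7 and 3.92 for Nxf3. Among the 506 other X-linked genes tested, 75 rose (14.8%) and 55 fell (10.9%).

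The GASP and ARMCX genes, X-linked relatives of the family, encode sorting proteins of G protein-coupled receptors and mitochondrial armadillo-repeat proteins. Of 9 tested, 1 rose (Bhlhb9), 2 fell and 6 missed the threshold, where 15.2% of all tested genes rose and 12.3% fell. The list's median log2 change was -0.10. Armcx6 fell by 1.06 on the log2 scale (SE 0.19, adjusted p = 0.0133), a call lost without control replicate 1 (adjusted p = 0.0511) or KO replicate 1 (adjusted p = 0.0615). Armcx2 fell by 0.39 (SE 0.10, adjusted p = 0.0432), a call lost when any library was left out.

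Short sequence words were searched on both strands of the 300 bases from 250 before to 50 after each RefSeq start. CACGTG, the E-box bound by many basic helix-loop-helix factors, occurred in 5 of the 7 members (Bex1, Bex3, Bex4, Tceal1 and Tceal8) and in 7.15% of 32851 windows. GGAATG, the word recognised by TEAD factors, the DNA-binding partners of YAP and TAZ, occurred in Bex1, Bex4 and Tceal8 and in 14.7% of all windows. GGGCGG occurred in 6 members, all but Tceal1, and in 35.7% of windows, and TATAAA in Bex2 and in 13.6%. A combined word was then chosen after these sequences had been seen: TGACG followed by CACGTG at a spacing of 7 or 9 bases (TGACGNNNNNNNCACGTG or TGACGNNNNNNNNNCACGTG). It occurred in 25 windows, or 0.0761%, belonging to 23 of 27025 genes, and 11 of those 23 belong to the family or its GASP and ARMCX relatives. The windows of the members and of Tceal5 and Tceal3 are shown with both words in capitals, because members on either side of the difference carry them.
Bex1: ttcTGACGcaagtggCACGTGactag
Bex4: ttcTGACGcaagtggCACGTGactag
Bex3: cagTGACGcagggccctCACGTGacccg
Tceal8: tgaTGACGcgatcctCACGTGaccag
Tceal1: ctgTGACGcgctcccctCACGTGaccag
Tceal5: tggTGACGttcctgtCACGTGatcag
Tceal3: gggTGACGcggtgttCACGTGaccgg
These stand at chrX:136215506-136215531 for Bex1, chrX:136138972-136138997 for Bex4, chrX:136270263-136270290 for Bex3, chrX:136172224-136172249 for Tceal8, chrX:136707964-136707991 for Tceal1, chrX:136203889-136203914 for Tceal5 and chrX:136666363-136666388 for Tceal3. The Bex1, Tceal8 and Tceal5 sequences are read on the minus strand and the others on the plus strand. The combined word occurred in 4 members that were higher in the KO and in Tceal1, which was lower. Among the 4, Bex1 and Bex4 carry the same copied stretch. The word is not in the Bex2 and Tceal9 windows. A match describes the sequence and is not a binding site.

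Genes of the p75 receptor pathway were examined because Bex1 and Bex3 bind that receptor. Of 9 tested neurotrophin ligands and receptors, 1 rose, 1 fell and 7 missed the threshold, and the list's median log2 change was -0.25. Across all tested genes 15.2% rose and 12.3% fell. Ntf5, the ligand neurotrophin-4/5, rose by 1.36 ± 0.22 (adjusted p = 0.0107), and Ntrk2, its receptor TrkB, fell by 1.91 on the log2 scale (SE 0.34, adjusted p = 0.0133). Both calls depended on KO libraries: without KO replicate 2 the adjusted p was 0.0644 for Ntf5 and 0.0598 for Ntrk2, and without KO replicate 1 it was 0.0505 for Ntf5. For Sorcs2, a sorting receptor for pro-neurotrophins, the log2 change was -0.41 (adjusted p = 0.0919). For Ngfr, the p75 receptor itself, named after its value was seen, it was -0.04 (adjusted p = 0.873).

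Of 13 tested intracellular partners of p75, 4 rose and 9 did not pass, with a median log2 change of 0.11. For this list and the next, the shares of all tested genes were 15.2% that rose and 12.3% that fell. The scaffold Sqstm1 (p62) rose by 0.48 (adjusted p = 0.0350), Arhgdia by 0.36 (adjusted p = 0.0164) and the 14-3-3 protein Ywhae by 0.25 (adjusted p = 0.0415). The fourth, Maged1 (NRAGE), named after its value was seen, rose by 0.28 (adjusted p = 0.0436). These 4 calls were lost without KO replicate 2, at adjusted p of 0.138 for Sqstm1, 0.120 for Arhgdia, 0.218 for Ywhae and 0.231 for Maged1, and each was also lost without at least 1 other library. Of 11 tested transcription elongation factors, to which Tceal genes are related by name, 1 rose, 1 fell and 9 missed the threshold, and the list's median log2 change was 0.12. Tcea3, a tissue-restricted form of TFIIS, fell by 1.51 (SE 0.26, adjusted p = 0.0124). Ell rose by 0.49 ± 0.09 (adjusted p = 0.0140), a call lost without KO replicate 1 (adjusted p = 0.0900) or KO replicate 2 (adjusted p = 0.0771), and for Ell2 the log2 change was 0.29 (adjusted p = 0.0835).

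Since the family is known from neurons and hormone cells, the markers of the cell types of the gut wall are given beside it. In a whole tissue, fewer cells of a type and less RNA per cell cannot be told apart. The shares of all tested genes, beside the counts below, were 15.2% that rose and 12.3% that fell. Of 14 tested enteric neuron markers 1 fell and 13 did not pass, and the summed level was 4821 to 5730 normalized counts in the controls and 3839 to 4214 in the KO libraries. Of 20 enteroendocrine markers 15 fell, with a summed level of 17935 to 18117 in the controls and 4779 to 6366 in the KO libraries. The neuron sum was mostly Ret, a receptor kinase gene also active outside neurons, and without Ret, left out after its values were seen, it was 1828 and 2172 in the controls and 1767 and 1466 in the KO libraries. The summed level of enteric glia markers was 11618 to 12474 in the controls and 9853 to 10789 in the KO libraries, with 1 of 5 tested markers lower. Fibroblast markers fell in 4 of 9, with sums of 22652 to 25067 and 17804 to 19713, endothelial markers in 1 of 7, with sums of 4470 to 5288 and 3903 to 4217, and immune markers in 2 of 5, with sums of 10039 to 10226 and 6423 to 9069. Smooth muscle sums overlapped between the groups, at 24979 to 26711 and 20420.5 to 28165, and 2 of 3 pacemaker cell markers fell, with sums of 852 to 861 and 592 to 858. Of 12 intestinal epithelium markers 3 rose (the keratins Krt8, Krt18 and Krt20), 3 fell (Cdx1, Fabp2 and Lct) and 6 did not pass, and the sums were 1078330 to 1102890 in the controls and 922044 to 1022170 in the KO libraries. No listed marker was at 0 in every library. The part of any of these cell types in the levels of the family was not tested.

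**Figure D3:**
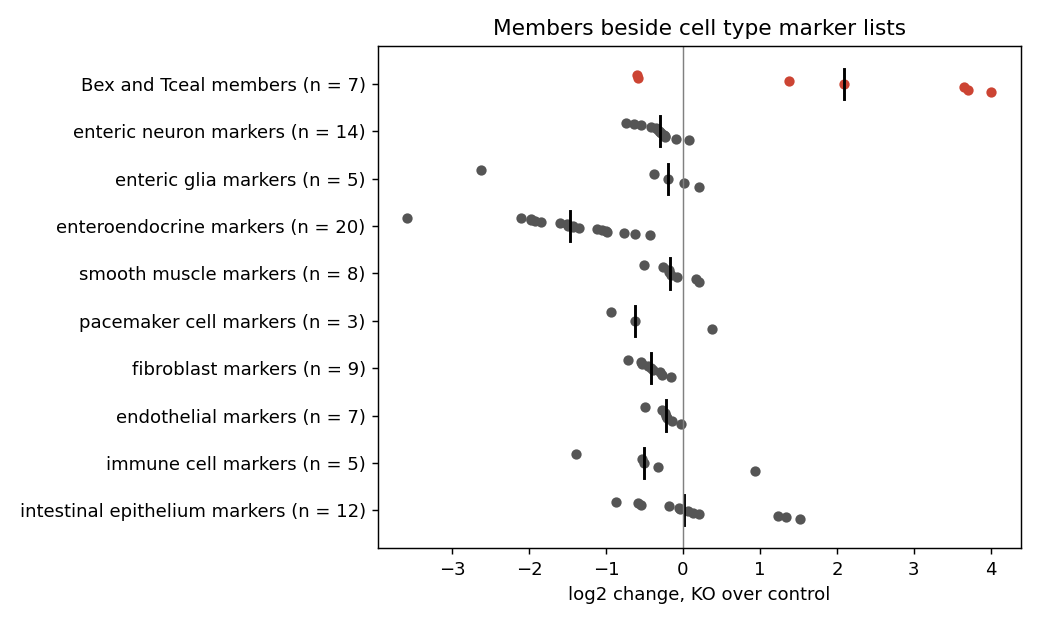
Log2 change (KO over control, of the normalized count plus 1) of the members and of the tested markers of each cell type, with a point for each gene and a bar at the median of each list. The members have a median of 2.09 and the enteroendocrine markers a median of -1.46.

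The genes most like each member over the 4 libraries were named by the root mean square difference of log2 values centred on the gene's mean, among 11111 candidates with a mean of at least 100 normalized counts, leaving out the members and unnamed gene models. With 2 groups of 2 libraries this measure mostly reflects the difference between the groups. Outside the family, Bex1 and Bex3 were both closest to Vnn1, a pantetheinase, at 0.107 and 0.0113, and the next closest was Nxpe3 for Bex1 (0.147) and Nhs for Bex3 (0.0830). Bex4 had no near companion, with Ddah1 at 0.317 and Mpped2 at 0.326. Tceal8 was closest to Wwc1 (0.0272), a scaffold of the Hippo pathway, and Tceal9 to Ahnak (0.0310), then to Wwc2 (0.0552). Bex2 was closest to Slc46a3 (0.00915) and Cd74 (0.0214), and Tceal1 to Fabp5 (0.0241) and Slc15a3 (0.0546). The limit of 100 was set on the mean over both groups. Nxpe3, Nhs and Mpped2 were under 100 in both controls and met it only through the KO libraries. Slc15a3 was under 100 in both KO libraries and met it only through the controls. Within the family Bex1 and Bex3 were the closest pair, at 0.0956, nearer than Vnn1 was to Bex1, and Bex2 and Tceal1 stood at 0.169 from each other. Bex4 lay farthest from Bex2 and Tceal1, at 2.32 from either.

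**Figure D4:**
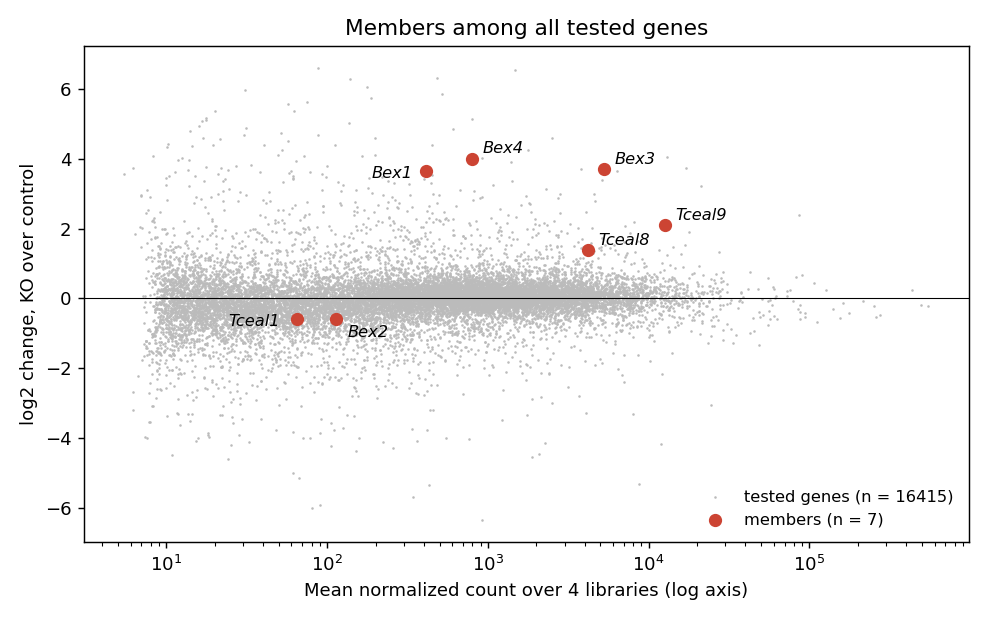
Log2 change (KO over control) against the mean normalized count over the 4 libraries (log axis) for all 16415 tested genes, with the 7 members marked. Bex4, Bex3 and Bex1 lie at 4.01, 3.70 and 3.65, Tceal9 and Tceal8 at 2.09 and 1.37, and Bex2 and Tceal1 just below 0.

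By size, 65 of the 16415 tested genes had a log2 change at least as large as that of Bex1, 60 as that of Bex3 and 47 as that of Bex4. The 11571 genes with a mean of at least 100 normalized counts over both groups were also ranked. Among them Bex4 was 19th, Bex3 23rd, Bex1 25th, Tceal9 131st and Tceal8 291st from the largest. Bex1 and Bex4, with control means of 59.8 and 95.9, met this limit only through their KO values. The ranks come from the contrast that chose the members and carry no test.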

How the data were processed

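RNA of whole small intestine from 2 control and 2 KO samples was sequenced. The authors deposited normalized counts per gene, a signal in which reads are divided by a size factor per library, with the group but not the sample in the column names, so libraries are numbered in column order and not paired. The authors' deposited log2 changes, fold ratios and p-values were not used for any result. Per the submitters' processing notes, STAR, featureCounts and DESeq2 were used with GRCm38, with versions, strand and multi-mapping settings not given in the sources used here. Whole reads were recovered from the step of 1 read for 100% of values (tolerance 0.001).

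Log2(normalized count + 1) was compared with limma 3.58.1 (R 4.3.3; empirical Bayes, residual df 2, prior df 3.53) over genes with at least 10 normalized counts in at least 2 libraries, with Benjamini-Hochberg adjustment at 0.05. The plan named edgeR only for raw counts; edgeR 4.0.16 and DESeq2 1.42.0 were run on the recovered reads as alternatives, beside other pseudocounts, filters, library-size scaling and leaving out each library. The limma steps were tested on simulated data. Positions and exonic lengths come from GENCODE M21 (28969 of 29011 IDs matched) and promoter sequences from RefSeq GRCm38.p6, where all 7 members matched. Gprasp3 of the relatives list was matched under its earlier symbol Bhlhb9.

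Members and lists were chosen with earlier results of these data known. Genes named are the members, Lats1, Lats2, the other tested Bex and Tceal genes, relatives past the threshold, up to 3 per pathway list and up to 6 neighbours with the smallest adjusted p, the sex-linked genes, and the 2 genes most like each member, of which 1 is not reported here.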

Additional observations from a re-analysis of the deposited data

How the results depend on the processing

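The log2 changes of the 7 members kept their direction under all 11 alternatives, but filters cannot move a member's value, and leaving out 1 of 2 libraries cannot move it beyond the spread between them. Leaving out single libraries gave 3.57 to 3.74 for Bex1, -0.66 to -0.55 for Bex2, 3.57 to 3.83 for Bex3, 3.61 to 4.41 for Bex4, -0.85 to -0.31 for Tceal1, 1.28 to 1.46 for Tceal8 and 1.97 to 2.21 for Tceal9. Without a filter on low values, which adds genes to the adjustment, 1318 genes fell, 2 other Bex and Tceal genes and 3 neighbours rose, 1 relative fell and 1 partner of p75 rose. With DESeq2 3 neighbours rose and 1 relative fell. Leaving out single libraries gave 908 to 2171 genes that rose and 864 to 1612 that fell, the lowest counts without either KO library. In the same fits the neighbours numbered 2 to 4 that rose and 0 to 1 that fell, and 0 to 1 relatives fell. The neurotrophin list had 0 to 1 in each direction, the p75 partners 0 to 2 that rose and the elongation factors 0 to 2 that rose. Of the 15 single genes outside the members that passed the test, 12 lost the call in at least 1 alternative, and Tceal5, Bhlhb9 and Tcea3 kept it in all. The causes of the lost calls were not tested. With 2 libraries per group, the members with the lowest levels (Bex1 and Bex4 in controls, Bex2 and Tceal1 in both groups) rest on the fewest reads. No paired analysis was possible because the columns carry no replicate numbers.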
